A study of Homo sapiens with 9 samples.

Results

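Amyotrophic lateral sclerosis (ALS) is a fatal degeneration of motor neurons, and the genes linked to it by inherited variants include a group whose proteins work in autophagy and in transport along the cytoskeleton. DNA:RNA hybrids were measured here over 9 of them: C9orf72, TBK1, OPTN, SQSTM1, VCP, SPG11, KIF5A, NEK1 and ANXA11. They were taken as a named list, with no threshold on a measured value, and are 9 of the 19974 protein-coding genes of the RefSeq GRCh38 annotation on chromosomes 1 to 22 and X. Each was read over its annotated span plus 1 kb on each side, called its window below.

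SH-SY5Y cells, a long-established line from a human neuroblastoma, were infected with a pLVX-U6 lentivirus that expresses a short hairpin RNA and were selected with puromycin (2 µg/mL for 2 weeks, then 1 µg/mL). The hairpin was a negative control (shNC) or was directed against TDP-43 (shTDP43), the nucleic acid-binding protein that forms aggregates in most ALS. Nucleic acids were cut with BsrGI, EcoRI, HindIII, SspI and XbaI, hybrids were pulled down from 6 µg with the S9.6 antibody, and the DNA was sequenced (DRIP-seq). Each hairpin had 3 untreated libraries and 1 library made after 6 h of RNase H, which digests the RNA of a hybrid. An input library, also named, was left out of these comparisons. Nothing in the labels tells whether replicates are separate infections or repeat cultures of 1 selected population, and the p-values reflect library-to-library spread alone, which may be technical. Peak lists measure neither the TDP-43 protein nor its RNA, so the depletion itself cannot be checked in them.

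A DNA:RNA hybrid forms when a transcript pairs with its template strand, which leaves the other DNA strand single; the whole structure is an R-loop. R-loops are common over the first part and the far end of active genes, and are favoured where the displaced strand is rich in G. In autophagy, cargo is enclosed in a membrane and delivered to lysosomes. C9ORF72 acts with SMCR8 and WDR41 upstream of this process, the kinase TBK1 phosphorylates the receptors OPTN and p62 (the product of SQSTM1), the ATPase VCP pulls ubiquitinated proteins out of complexes and membranes, and spatacsin (SPG11) serves in re-forming lysosomes. KIF5A is a neuronal motor that carries cargo along microtubules, NEK1 is a kinase of cilia and the DNA damage response, and ANXA11 tethers RNA granules to lysosomes that travel along axons. Neurons have long axons and cannot dilute waste by dividing, which is the usual setting in which these genes are discussed.

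The untreated libraries held 57204 to 73353 peaks and 91.6 to 142 Mb of covered DNA. One library stood apart: shTDP43 replicate 1 had the fewest peaks, the 91.6 Mb, and the lowest background pileup, 1.05 against 1.62 to 2.01 in the other 5, which serves here as a relative depth. The RNase H libraries had 15504 (shNC) and 8868 (shTDP43) peaks and background pileups of 0.936 and 0.991. Of 12 adrenergic genes that mark SH-SY5Y, 11 carried enough covered length to be tested, and their summed covered length was 132.4 to 135.1 kb in shNC and 131.3 to 134.6 kb in shTDP43. The exception was TH, a defining adrenergic gene, which had no peak. Of 12 marker genes of other lineages, such as ALB and INS, 8 had no peak in any untreated library, and the list summed to 5.24 to 6.24 kb in shNC and 3.67 to 5.00 kb in shTDP43. Most of that sum was GFAP, a glial gene and the only 1 of the list tested, with means of 4.63 kb in shNC and 3.91 kb in shTDP43. A peak is no measure of RNA level, so these values describe only where hybrids were called.

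The sequences below are the starts that the results turn on, taken from the RefSeq promoter windows (GRCh38.p14, 300 bases around an annotated start, most of them upstream, written 5′ to 3′ on the gene's strand). Of the 9 genes, 7 have such windows, 13 in all. The C9orf72 window, chr9:27573432-27573731 on the minus strand, is shown because it holds the GGGGCC repeat whose expansion is a leading genetic cause of ALS, with the reference copies of GGGGCC in capitals. It is the later of 2 annotated starts and lay under a peak in all 6 untreated libraries.
C9orf72: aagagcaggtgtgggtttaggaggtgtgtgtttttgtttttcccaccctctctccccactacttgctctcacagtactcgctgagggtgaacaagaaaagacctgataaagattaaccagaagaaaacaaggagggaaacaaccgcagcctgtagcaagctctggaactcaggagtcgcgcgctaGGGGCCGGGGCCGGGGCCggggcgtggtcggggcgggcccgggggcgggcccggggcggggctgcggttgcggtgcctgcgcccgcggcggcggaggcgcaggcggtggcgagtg
The SQSTM1 window, chr5:179820655-179820954 on the plus strand, lies inside the gene at the last of its annotated starts and is shown because a peak was still called there in shNC after RNase H. GGGGCC is again in capitals.
SQSTM1: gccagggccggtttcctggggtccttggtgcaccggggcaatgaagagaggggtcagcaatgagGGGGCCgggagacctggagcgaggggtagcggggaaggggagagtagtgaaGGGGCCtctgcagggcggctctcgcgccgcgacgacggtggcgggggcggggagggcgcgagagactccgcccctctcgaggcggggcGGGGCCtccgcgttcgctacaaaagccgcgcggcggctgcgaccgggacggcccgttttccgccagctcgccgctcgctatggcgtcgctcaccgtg
The OPTN window, chr10:13099832-13100131 on the plus strand, is the contrast: it also holds GGGGCC and is G-rich, yet no peak lay on it in any library.
OPTN: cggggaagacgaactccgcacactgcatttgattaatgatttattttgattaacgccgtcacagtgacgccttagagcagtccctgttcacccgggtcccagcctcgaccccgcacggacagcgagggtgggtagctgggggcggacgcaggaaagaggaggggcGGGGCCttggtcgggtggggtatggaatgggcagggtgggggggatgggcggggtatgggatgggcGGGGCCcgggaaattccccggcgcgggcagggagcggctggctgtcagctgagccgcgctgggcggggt
The VCP window, chr9:35072576-35072875 on the minus strand, is shown for the EcoRI site in capitals, GAATTC, at which the peak ended in some libraries and not in others.
VCP: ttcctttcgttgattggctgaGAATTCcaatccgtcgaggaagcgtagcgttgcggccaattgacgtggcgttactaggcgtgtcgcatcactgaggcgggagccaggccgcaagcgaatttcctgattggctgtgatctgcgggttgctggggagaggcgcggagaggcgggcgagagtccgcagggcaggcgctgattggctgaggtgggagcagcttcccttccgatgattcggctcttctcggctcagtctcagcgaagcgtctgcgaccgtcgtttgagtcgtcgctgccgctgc

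The C9orf72 and SQSTM1 windows printed here hold 3 copies of GGGGCC each and the OPTN window 2. GGGGCC, searched on both strands and therefore also as GGCCCC, is found in 42.1% of the 22132 promoter windows of coding genes, so its presence in these is not rare. GC skew, the excess of G over C divided by their sum on the gene's strand, was 0.22 in the C9orf72 window, 0.21 in the SQSTM1 window and 0.30 in the OPTN window, against a median of 0.02 over all windows. Only 3.60% of windows had a skew at least as high as that of the printed OPTN window. The other C9orf72 window had a skew of -0.24 and also lay whole under a peak in all 6 untreated libraries. So did the other SQSTM1 windows, with skews of -0.02 and 0.20. The other OPTN window, at 0.15, lay under no peak. The NEK1 window had a skew of -0.40 and a GC content of 66.3%, and no peak lay on it either. Among the 13 windows of these genes, 7 lay under a peak in all 6 untreated libraries, against 37.8% of all windows, and 4 lay under none, against 43.1% of all windows. By gene, at least 1 window was under a peak in all 6 libraries for C9orf72, TBK1, VCP and SQSTM1, and for none of OPTN, NEK1 and ANXA11.

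The genes differed widely in how much of their window was covered. As the mean of the 6 untreated libraries, peaks covered 85.6% of the VCP window and 82.8% of the SQSTM1 window, values above those of 91.2% and 90.3% of all coding genes. ANXA11 followed with 24.9%, KIF5A with 20.2% and SPG11 with 16.5%, then C9orf72 with 9.62% and TBK1 with 8.33%. The median coding gene had 5.61%, and NEK1, with 1.29%, lay below it. OPTN had no peak in any of the 8 libraries, as did 29.4% of coding genes over the untreated libraries. In this order the ranges over the 6 libraries overlapped between VCP and SQSTM1, and between each neighbouring pair from ANXA11 to TBK1. They lay apart between SQSTM1 and ANXA11, between TBK1 and NEK1, and between NEK1 and OPTN. NEK1 is also by far the longest of the 9, at 219.8 kb, and VCP the shortest, at 16.6 kb.

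**Figure D1:**
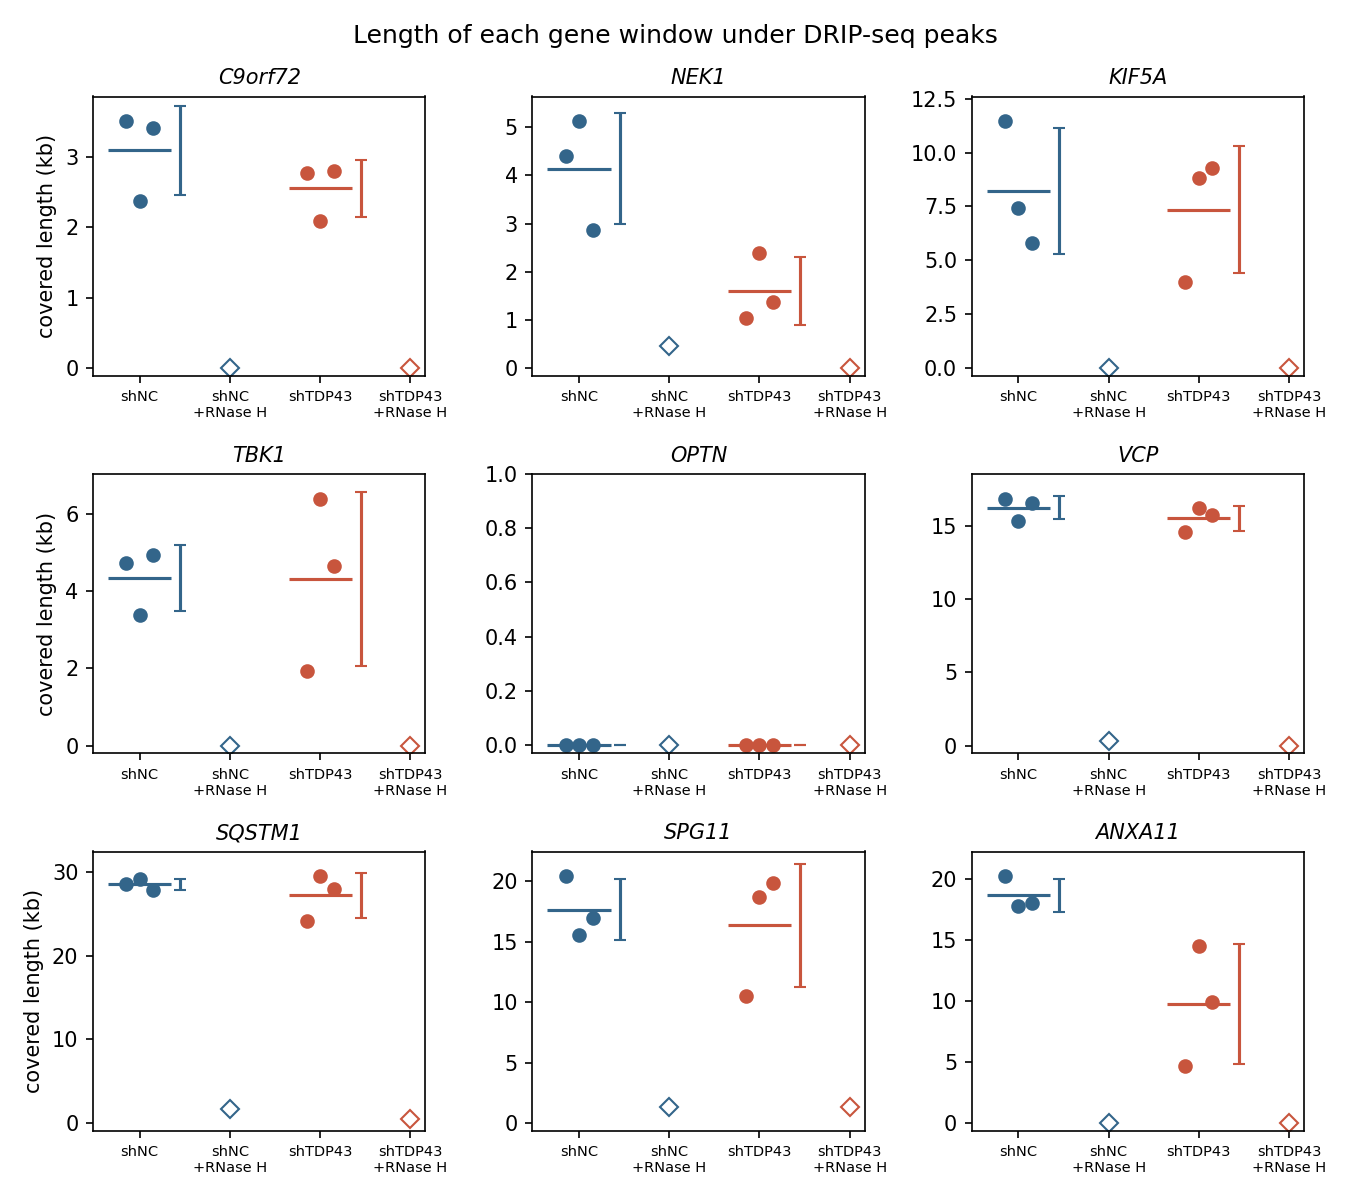
Covered length (kb) in the window of each of the 9 genes, 1 point per library, in shNC and shTDP43 libraries without RNase H and after RNase H; bars beside the points are the mean ± SD of 3 untreated libraries. The shNC and shTDP43 points separate for NEK1 and ANXA11 and overlap for the other genes with peaks, and the points after RNase H lie at or near 0.

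C9orf72 (chr9:27546546-27573866, minus strand, 27.3 kb) carried its main peak at its start, in all 6 untreated libraries. Covered length was 3.50, 2.37 and 3.41 kb in shNC replicates 1 to 3 and 2.77, 2.09 and 2.80 kb in shTDP43 replicates 1 to 3. The highest values were shNC libraries, but the groups overlapped. Most of it was a peak region from 0.38 kb upstream to 1.93 kb downstream of the start, which measured 2.28, 1.76 and 2.31 kb in shNC and 2.28, 1.76 and 1.76 kb in shTDP43. This region covered both promoter windows whole, the repeat included, in all 6. Its summit lay 0.94 kb inside the gene, at base 27572922 or 27572923 in every untreated library. The strongest peak of a gene is taken here and below as the 1 with the highest −log10 q in the authors' list among those with a summit in the window. This C9orf72 peak ranked in the top 1.64 to 2.16% of its library by that value, and its fold enrichment was 22.2 to 31.4. Mean C9orf72 cover was 3.09 ± 0.63 kb for shNC and 2.55 ± 0.40 kb for shTDP43 (SD, n = 3), and the change on the scaled log2 scale was -0.07 ± 0.27 (SE; limma adjusted p = 0.903).

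TBK1 (chr12:64452120-64502114, plus strand, 49.995 kb) also carried a peak at its start in all 6 untreated libraries, weaker than that of C9orf72. In all of them but shTDP43 replicate 1, more of the cover lay farther inside the gene. Covered length was 4.73, 3.37 and 4.94 kb in shNC and 1.93, 6.39 and 4.64 kb in shTDP43. The shTDP43 libraries held both the lowest and the highest value, so the groups overlapped. A peak over the start, from 0.64 kb upstream to 0.65 kb downstream, measured 1.29 kb in all 6 untreated libraries with both edges at the same base. A further region 2.53 to 5.64 kb inside the gene was also in all 6, at 3.11, 1.38 and 1.99 kb in shNC and 0.64, 2.11 and 1.54 kb in shTDP43. The rest of the variation came from regions called in fewer libraries. Of the 13 TBK1 regions 6 were in 1 library only (46.2%, against 38.7% of all regions). The strongest TBK1 peak had a fold enrichment of 4.96 to 12.3, within the strongest 12.2 to 29.6% of its library. Mean TBK1 cover was 4.35 ± 0.85 kb for shNC and 4.32 ± 2.25 kb for shTDP43 (SD, n = 3), a log2 change of 0.04 ± 0.31 (limma adjusted p = 0.951) that turned to -0.15 with no scaling.

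OPTN (chr10:13100082-13138308, plus strand, 38.2 kb), the ubiquitin-binding receptor that TBK1 activates, had 0 bp covered in all 8 libraries and was not tested. Its window overlaps the neighbouring gene CCDC3 by 0.91 kb, which was also uncovered. These lists hold only regions past the authors' peak threshold, so hybrids under that threshold were not detectable here.

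SQSTM1 (chr5:179806393-179838078, plus strand, 31.7 kb), which encodes the receptor p62, was covered along most of its length. Covered length was 28.6, 29.1 and 27.9 kb in shNC and 24.2, 29.5 and 27.9 kb in shTDP43. The lowest value was shTDP43 replicate 1 and the groups overlapped. Its 4 regions were each in all 6 untreated libraries, and both gene ends lay under peaks in all 6. Neither end is separable from a neighbour: the window shares 1.47 kb with MGAT4B and 1.80 kb with MRNIP, and every shared base was covered in all 6. The region across the start runs from 17.0 kb upstream to 2.01 kb downstream, most of it outside SQSTM1. Among peaks with a summit inside the window the strongest had a fold enrichment of 32.7 to 50.6, in the top 1.06 to 1.45% of its library. Mean SQSTM1 cover was 28.5 ± 0.63 kb for shNC and 27.2 ± 2.75 kb for shTDP43 (SD, n = 3), a log2 change of 0.12 ± 0.10 (limma adjusted p = 0.634) that was -0.07 with no scaling.

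VCP (chr9:35056064-35072625, minus strand, 16.6 kb) had the highest mean share of its window covered of the 9. Its range over the untreated libraries overlapped that of SQSTM1. Covered length was 16.9, 15.4 and 16.5 kb in shNC and 14.6, 16.2 and 15.8 kb in shTDP43, out of a window of the span and 2 flanks. The 6 values lay close together and the groups overlapped. Its strongest peak had its summit at bases 35071199 to 35071201 in all 6 untreated libraries, with a fold enrichment of 38.5 to 64.6 and a place in the top 0.518 to 0.947% of the library. That summit, like the one in C9orf72, lies inside the gene and not at its start. Mean VCP cover was 16.3 ± 0.80 kb for shNC and 15.5 ± 0.84 kb for shTDP43 (SD, n = 3), with a log2 change of 0.13 ± 0.12 (limma adjusted p = 0.639) that was -0.07 with no scaling. The scaling itself gives a positive change to a gene with equal cover in every library. The adrenergic gene GATA2, at 15.8 kb in all 6, had a log2 change of 0.19, and the values of VCP and SQSTM1 lie below that.

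Peak ends at the VCP start stood at a restriction site in some libraries. The EcoRI site in the printed window lies at bases 35072849 to 35072854. In shNC replicate 3 and in shTDP43 replicates 2 and 3 the peak ended at base 35072853, inside that site, while in the other 3 untreated libraries it ran across the site. A HindIII site at bases 179806773 to 179806778 in a SQSTM1 window was crossed by peaks in all 6. The recognition sequences searched were BsrGI TGTACA, EcoRI GAATTC, HindIII AAGCTT, SspI AATATT and XbaI TCTAGA, each of which reads the same on both strands. At least 1 of them is in 18.4% of all promoter windows, and GAATTC is in 4.35%. Over all promoter windows, 32.5 to 45.7% of peak edges in an untreated library fell inside a recognition sequence, against 0.452% of the windows' bases. In the 9 windows, 54 of the 618 peak edges stood at a base shared by all 6 libraries (8.74%, against 9.48% of all edges), including both edges of the TBK1 start peak.

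SPG11 (chr15:44562696-44663662, 101 kb) had the most regions, 26, a count that is not corrected for gene length. Of these 15 were in 1 library only (57.7%, against 38.7% of all regions). Covered length was 20.4, 15.6 and 17.0 kb in shNC and 10.5, 18.7 and 19.9 kb in shTDP43. The lowest value was again shTDP43 replicate 1, and the groups overlapped. The main region lay 0.60 to 10.1 kb from the end with the lower coordinate and measured 9.16, 8.16 and 8.90 kb in shNC and 7.31, 7.72 and 7.89 kb in shTDP43. Across that end itself, chr15:44561784-44562876, a short region was called in 3 of 3 shNC libraries (0.397, 0.360 and 1.09 kb) and in none of the shTDP43 libraries. It was the only 1 of the 79 regions in the 9 windows with that pattern, which 1.27% of all regions had, and most of it lies in the overlapping span of EIF3J. The reverse pattern, 0 shNC and 3 shTDP43 libraries, was found for none of the 79 and for 0.258% of all regions. Mean SPG11 cover was 17.7 ± 2.49 kb for shNC and 16.4 ± 5.11 kb for shTDP43 (SD, n = 3), a log2 change of 0.04 ± 0.13 (limma adjusted p = 0.890) that was -0.16 with no scaling.

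KIF5A (chr12:57550044-57586633, 36.6 kb) was covered in the middle of the gene, not at its ends. Covered length was 11.5, 7.42 and 5.80 kb in shNC and 3.98, 8.80 and 9.28 kb in shTDP43. Each group spread by more than the difference between them, and the groups overlapped. A pair of regions 18.1 to 27.8 kb from the end with the lower coordinate was in all 6 libraries, and neither annotated end lay under a peak in any. The first region of the pair measured 4.62, 3.32 and 3.39 kb in shNC and 0.99, 3.82 and 4.72 kb in shTDP43, the lowest again in shTDP43 replicate 1. The KIF5A peak with the highest −log10 q had a fold enrichment of 5.14 to 8.84. Mean KIF5A cover was 8.23 ± 2.91 kb for shNC and 7.36 ± 2.93 kb for shTDP43 (SD, n = 3), a log2 change of 0.00 ± 0.25 (limma adjusted p = 0.993) that was 0.22 without shTDP43 replicate 1.

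**Figure D2:**
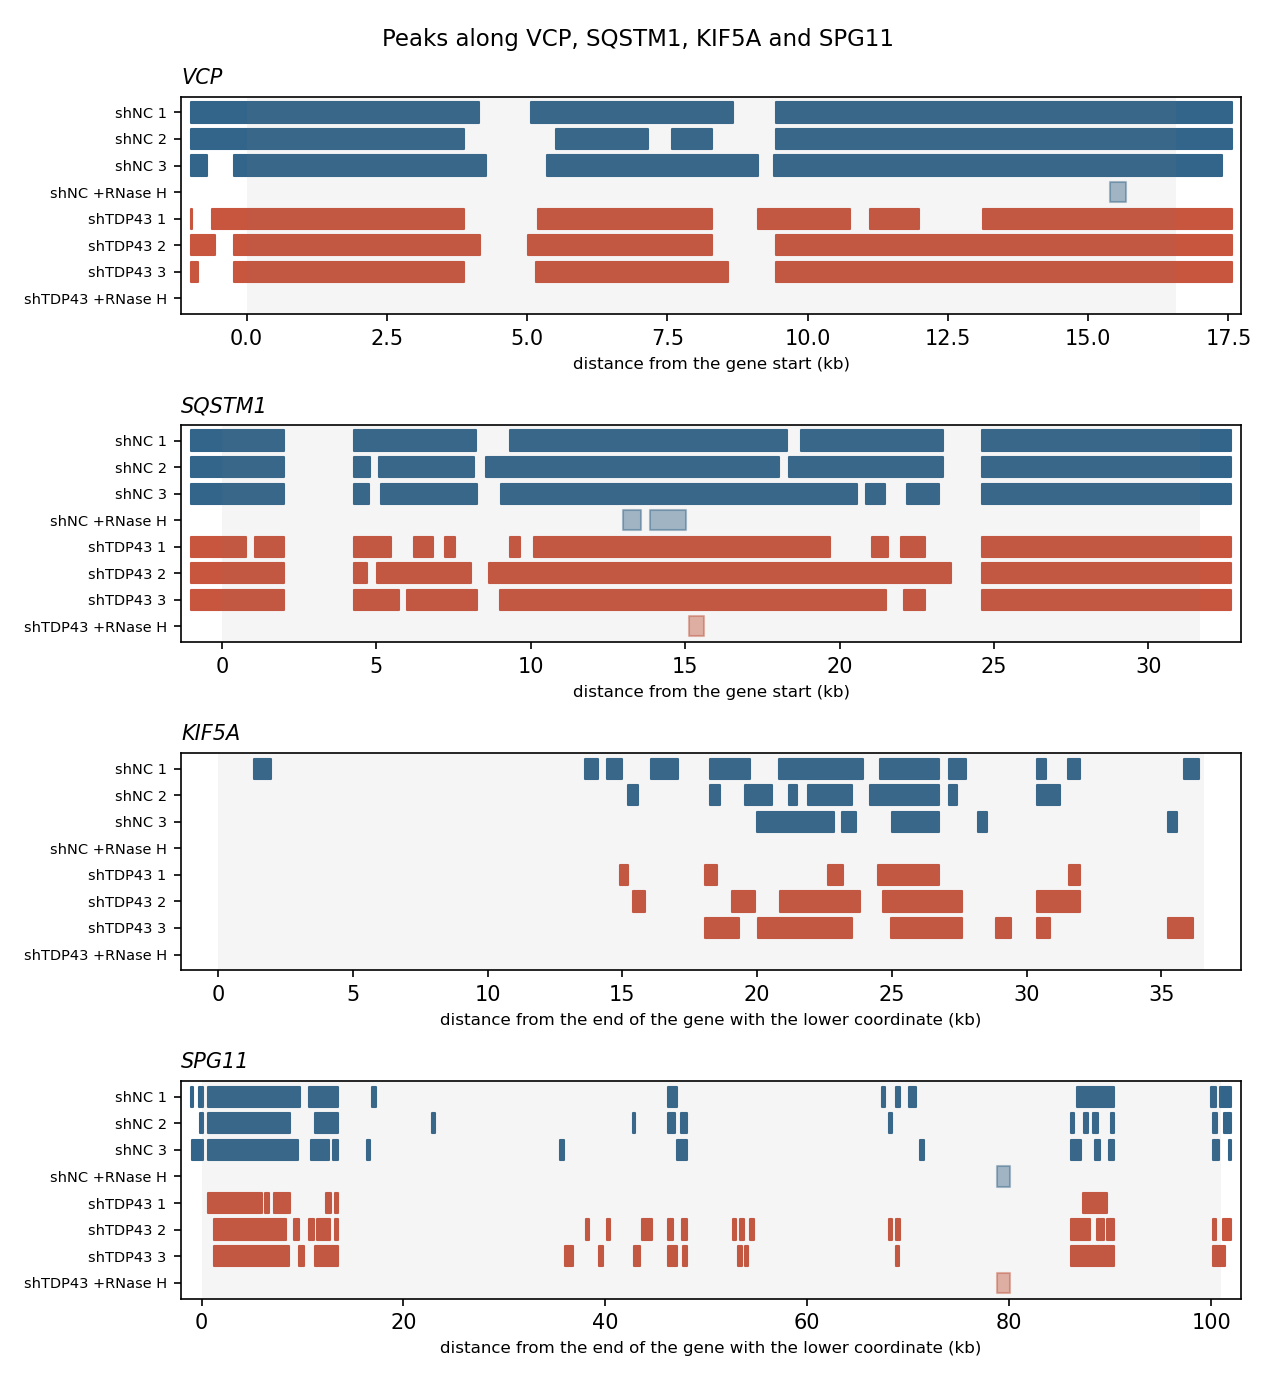
Peaks along VCP, SQSTM1, KIF5A and SPG11, 1 row per library (8 rows), with distance in kb from the gene start, or for KIF5A and SPG11 from the end with the lower coordinate, on the horizontal axis; bars are stretches under a peak (blue shNC, red shTDP43, pale after RNase H) and the grey band is the gene span. Peaks run along most of VCP and SQSTM1 in the 6 untreated rows and lie mid-gene in KIF5A, and both RNase H rows of SPG11 hold a bar that no untreated row has.

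NEK1 (chr4:169392809-169612583, minus strand, 219.8 kb) had little of its long window covered, and its 3 lowest values were all in shTDP43. In kb its mean over the 6 untreated libraries, 2.87 kb, was above the median of all coding genes, 2.53 kb. Covered length was 4.41, 5.13 and 2.87 kb in shNC and 1.04, 2.38 and 1.38 kb in shTDP43. Every shTDP43 library was below every shNC library, with or without scaling. Mean NEK1 cover was 4.14 ± 1.15 kb for shNC and 1.60 ± 0.70 kb for shTDP43 (SD, n = 3), a log2 change of -1.17 ± 0.30 (SE) that did not pass the adjusted test (limma adjusted p = 0.144). The unadjusted limma p for NEK1 was 0.00404. Without shTDP43 replicate 1 the log2 change was -1.08 (limma adjusted p = 0.171). An exact two-sided permutation test gave p = 0.1, the smallest value that 3 against 3 libraries allow. The cover lay in 5 regions, all but 1 of them away from the start. The region 41.3 to 43.3 kb inside the gene was the only 1 in all 6 libraries, at 1.93, 1.93 and 1.23 kb in shNC and 1.04, 1.42 and 1.38 kb in shTDP43, and its groups overlapped. The region 61.8 to 65.6 kb inside measured 2.14, 2.79 and 1.31 kb in shNC and 0, 0.65 and 0 kb in shTDP43. These peaks had low pileups: the 1 with the highest −log10 q in each library had a fold enrichment of 4.19 to 7.18 and a summit pileup of 9 to 20 fragments over a background of 1.05 to 3.74.

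ANXA11 (chr10:80150889-80205808, minus strand, 54.9 kb) had the largest difference in kb. Covered length was 20.2, 17.7 and 18.0 kb in shNC and 4.69, 14.5 and 9.95 kb in shTDP43. Every shTDP43 library was below every shNC library, with or without scaling, and shTDP43 replicate 1 was the lowest. Mean ANXA11 cover was 18.7 ± 1.36 kb for shNC and 9.73 ± 4.92 kb for shTDP43 (SD, n = 3), a log2 change of -0.88 ± 0.25 (SE) that did not pass the adjusted test (limma adjusted p = 0.185). The unadjusted limma p for ANXA11 was 0.00698. The exact two-sided permutation test again gave p = 0.1, its smallest value. Leaving out shTDP43 replicate 1 gave a log2 change of -0.60 (limma adjusted p = 0.148), and leaving out shTDP43 replicate 2 gave -1.16 (limma adjusted p = 0.0277), the only setting under which any of the 9 genes passed.

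Along ANXA11 the difference lay in the body and far part of the gene. The region 42.9 to 54.1 kb from the start, which stops just short of the far end, measured 10.0, 10.1 and 10.8 kb in shNC and 4.26, 7.93 and 8.89 kb in shTDP43. The region 27.3 to 33.4 kb from the start measured 4.17, 4.48 and 3.64 kb in shNC and 0.435, 2.63 and 1.06 kb in shTDP43. Both were in all 6 libraries with groups that did not overlap, also after scaling. Of the 19 regions of the 9 genes in all 6 libraries these 2 were shorter in shTDP43 by that rule after scaling, against 6.62% of all such regions. In the other direction 1 of the 19 was longer, against 7.33% of all such regions. That 1 was the VCP region 9.12 to 18.4 kb from the start, whose unscaled lengths overlapped, at 8.58, 8.24 and 8.35 kb in shNC and 7.10, 9.01 and 9.01 kb in shTDP43. In ANXA11 a further region 25.7 to 27.2 kb from the start measured 1.54, 1.01 and 1.26 kb in shNC and 0, 1.45 and 0 kb in shTDP43. No peak crossed the annotated start in any library, and the strongest ANXA11 peak had a fold enrichment of 5.85 to 10.9. Background pileup, a proxy for depth, was also lowest in shTDP43 replicate 1, and its part in the NEK1 and ANXA11 differences was not tested. The fits below change the number of peaks kept or the scaling, and the depth behind each peak stays as it was. With every list cut to 57204 peaks, the number in that library, the log2 change was -0.996 for NEK1 and -0.89 for ANXA11 (limma adjusted p = 0.256 and 0.133). With scaling by peak number it was -1.24 and -0.95 (limma adjusted p = 0.246 and 0.374).

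**Figure D3:**
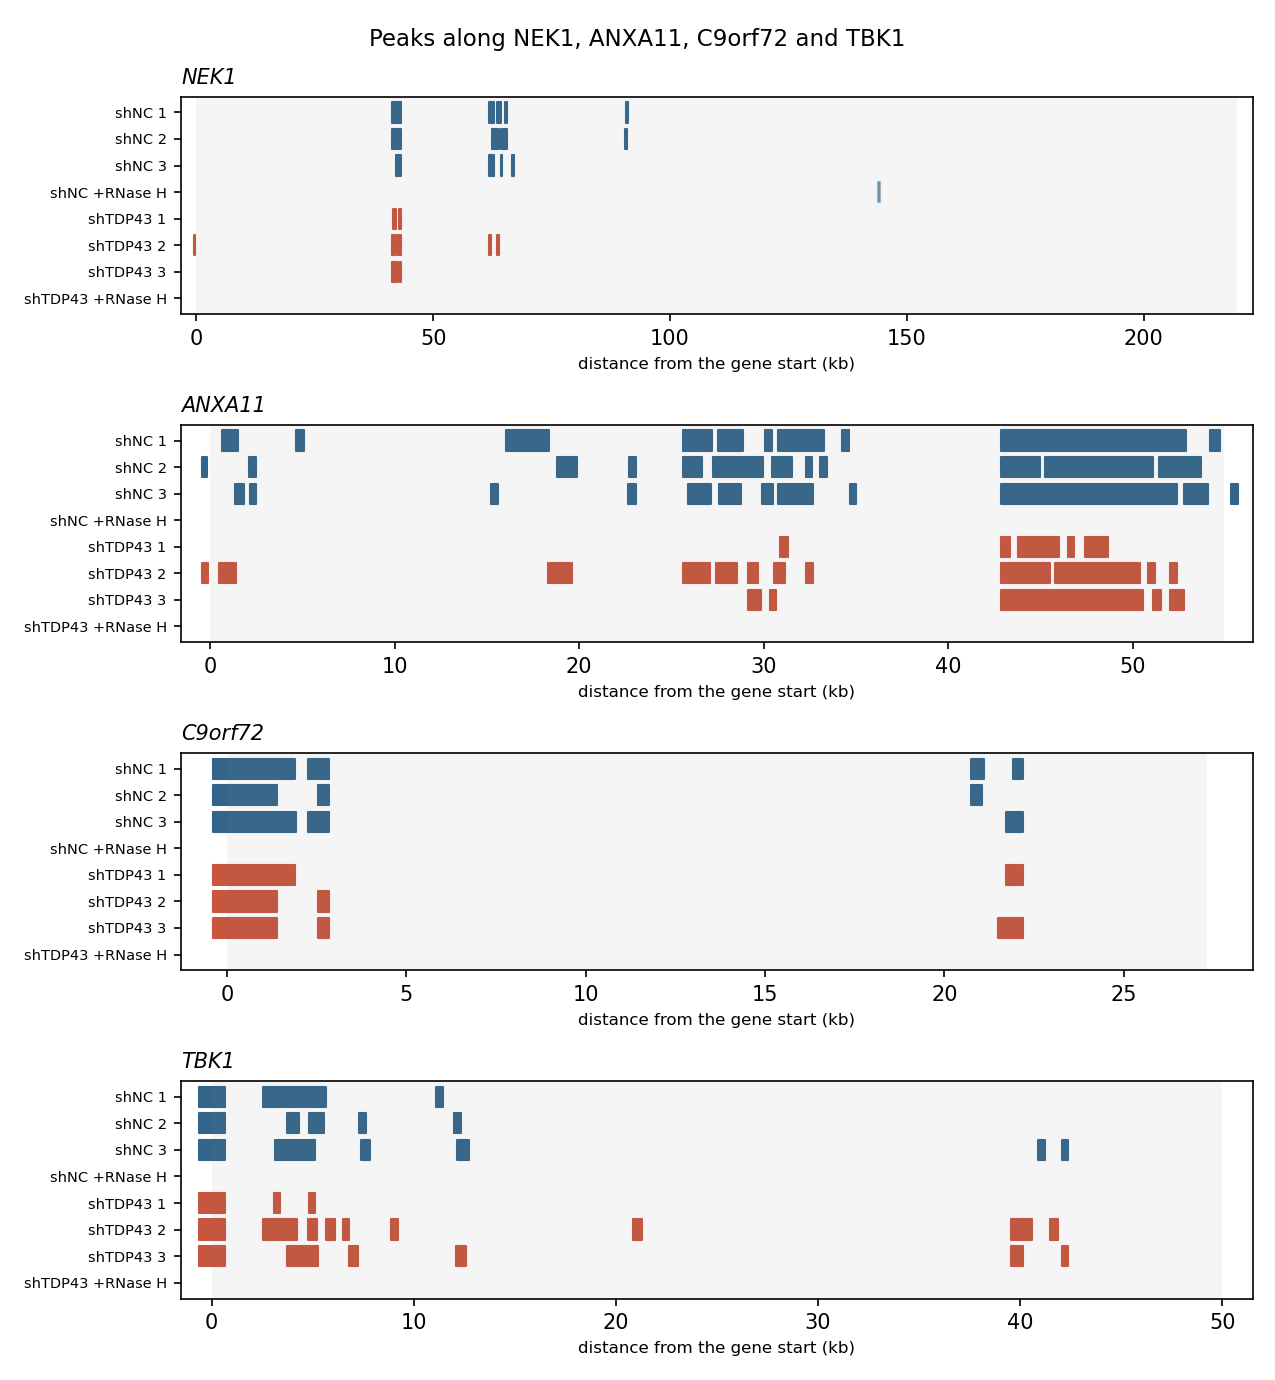
Peaks along NEK1, ANXA11, C9orf72 and TBK1, drawn in the same way with distance from the gene start in kb on the horizontal axis and 1 row for each of the 8 libraries. Bars cross the start of C9orf72 and TBK1 in all 6 untreated rows, while NEK1 and ANXA11 hold less filled length in the 3 untreated shTDP43 rows than in the shNC rows.

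Set beside all genes, none of the 8 genes tested passed an adjusted p of 0.05, a threshold that 0.921% of the 12810 tested genes passed (limma, 118 genes: 96 or 0.749% less covered in shTDP43 and 22 or 0.172% more). At an unadjusted p under 0.05 the 2 genes that passed were NEK1 and ANXA11, both less covered, against 7.68% of all tested genes in that direction. The same 2 had groups that did not overlap, against 10.2% of tested genes in that direction, and none was higher in all shTDP43 libraries, against 8.14%. The median log2 change of the 8 genes was 0.02 and 4 of them were above 0, while over all tested genes the median was 0.05 and 56.5% were above 0. With no scaling the median of all tested genes was -0.15. Without shTDP43 replicate 1 the log2 changes were -0.29 for C9orf72, 0.37 for TBK1, 0.0063 for VCP, 0.04 for SQSTM1, 0.16 for SPG11 and 0.22 for KIF5A, none of which passed the adjusted test (limma). A difference counted in this way in covered length can come from fewer cells with a hybrid, a shorter hybrid or a signal nearer the peak threshold, and these cannot be told apart here.

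**Figure D4:**
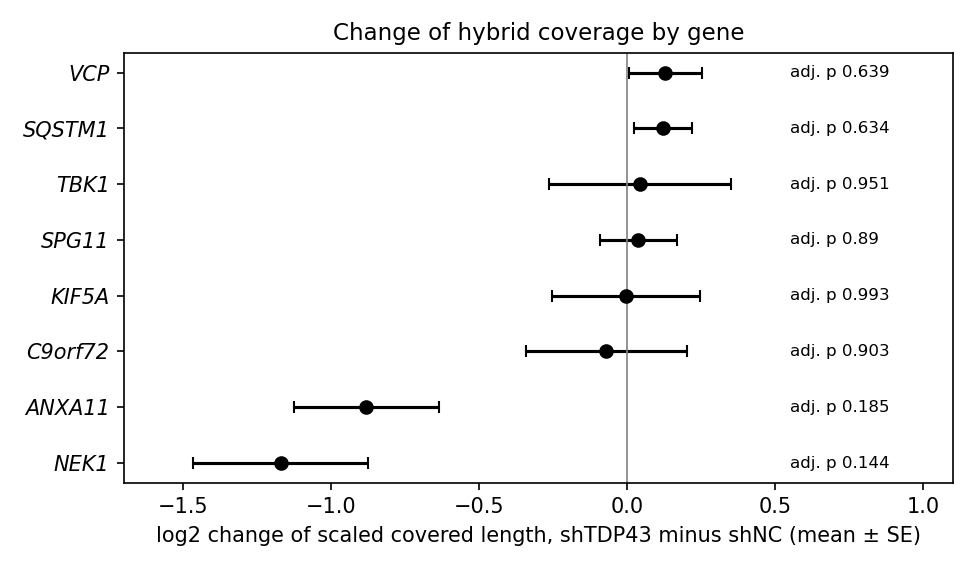
Log2 change of scaled covered length (shTDP43 minus shNC) for the 8 tested genes, with error bars of 1 SE from limma (3 libraries per group). NEK1 at -1.17 and ANXA11 at -0.88 lie farthest from 0, and the other 6 lie between -0.07 and 0.13; the adjusted p beside each point is from limma.

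After RNase H few peaks were called over these genes. In shNC no peak was left over C9orf72, TBK1, KIF5A and ANXA11, 4 of the 8 genes with peaks, against 64.1% of tested genes. In shTDP43 none was left over those 4, NEK1 and VCP, 6 of 8 against 77% of tested genes. All 8 genes were at a log2 change of -1 or less against the untreated mean, on a scale where 100 bp is added and genes with no peak left depend on that addition. So were 95.8% of tested genes in shNC and 96.7% in shTDP43. With 1 treated library per hairpin there is no replicate check. Depth moved with the treatment, and its part in these losses was not tested. The shallowest untreated library, shTDP43 replicate 1, had a background pileup of 1.05 against 0.936 and 0.991 in the treated libraries, and it held between 1.04 kb (NEK1) and 24.2 kb (SQSTM1) over the 8 genes.

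Part of what remained lay inside untreated peaks. Over SQSTM1 the shNC library kept 1.74 kb, or 6.09% of the untreated mean, and the shTDP43 library kept 0.484 kb, or 1.78%. One of the remaining shNC stretches, chr5:179820269-179821427, covers the whole of the printed SQSTM1 window. Over VCP the shNC library kept 0.285 kb (1.75%). All of these stretches lay within regions called in all 6 untreated libraries.

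Over SPG11 and NEK1, in contrast, the treated peaks stood where untreated libraries had none. A SPG11 peak at chr15:44641475-44642801, 1.33 kb long, had the same edges in both RNase H libraries and was in none of the 6 untreated libraries. Its fold enrichment was 18.1 in shNC and 17.6 in shTDP43 with a summit pileup of 34 in each. By −log10 q it ranked in the top 3.18% and 3.04% of those lists. A NEK1 peak of 0.457 kb at chr4:169468260-169468716 was in the shNC RNase H library alone. Such peaks were common in these lists: 44.5% of shNC and 44.6% of shTDP43 RNase H peaks overlapped no untreated peak, and 14.5% and 26.7% both overlapped none and were shared between the RNase H lists. All of the SPG11 cover after RNase H, 7.51% of the untreated mean in shNC and 8.11% in shTDP43, thus lay outside untreated peaks.

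The pathways around the 9 genes were read through lists of their machinery, receptors, partners, motors and paralogs, and no member of any list passed the adjusted test (limma). Of 40 core autophagy genes 38 were tested, with a median log2 change of 0.01 and 19 above 0. The smallest p-values in that list belonged to ATG4B, a protease that processes LC3-type proteins, at 17.6 ± 4.08 kb for shNC and 22.02 ± 4.13 kb for shTDP43 (n = 3, SD; log2 change 0.53 ± 0.13, limma adjusted p = 0.144), and TFEB, the transcription factor of lysosomal genes, at 11.6 ± 1.12 and 8.54 ± 1.97 kb (-0.27 ± 0.11, limma adjusted p = 0.378). Of 10 further receptors and scaffolds 8 were tested, with a median of -0.02 and 4 above 0. There the smallest p-values were those of TRIM25, at -0.79 ± 0.28 (limma adjusted p = 0.315), and of the receptor NBR1, at 0.25 ± 0.11 (limma adjusted p = 0.457).

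All 25 partners of the 9 proteins were tested, with a median log2 change of 0.09 and 13 above 0. NPLOC4, a cofactor of VCP, had 30.0 ± 3.06 kb for shNC and 32.5 ± 6.15 kb for shTDP43 (n = 3, SD; log2 change 0.30 ± 0.07, limma adjusted p = 0.122). FAF1, another VCP cofactor, had 13.6 ± 0.65 and 8.82 ± 2.95 kb (-0.49 ± 0.15, limma adjusted p = 0.243). Of 47 kinesin and dynein transport genes 43 were tested, with a median of 0.03 and 24 above 0. DYNLL1, a dynein light chain, had 5.65 ± 0.56 and 3.13 ± 0.90 kb (-0.68 ± 0.16, limma adjusted p = 0.115), and TRAK1, an adaptor that links mitochondria to kinesin, had 23.3 ± 1.62 and 17.1 ± 3.47 kb (-0.27 ± 0.09, limma adjusted p = 0.254). These medians lie around the 0.05 of all tested genes.

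Paralogs were listed for KIF5A, NEK1, TBK1 and ANXA11 only and numbered 26, of which 17 were tested. Most of the list were NEK kinases and annexins, the families of NEK1 and ANXA11. The tested paralogs had a median log2 change of -0.19, the lowest of the 5 pathway lists, and 3 were above 0 (17.6%, against 56.5% of all tested genes). The list was chosen with earlier results of these data known, so it is no independent support for a family pattern. The smallest p-values were those of other annexins. ANXA6 had 17.5, 16.2 and 10.3 kb in shNC and 4.78, 7.96 and 7.74 kb in shTDP43, groups that did not overlap, with a log2 change of -0.90 ± 0.17 (limma adjusted p = 0.0663). ANXA2 had 2.36, 2.31 and 2.37 kb in shNC and 0, 1.22 and 0.307 kb in shTDP43, again without overlap (-2.67 ± 0.87, limma adjusted p = 0.266). After scaling, 10.2% of all tested genes were lower in shTDP43 without overlap. Its fold is large because 1 library is at 0, where the added 100 bp sets the value.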

How the data were processed

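Per the labels and the peak names, the authors' peak lists were made per library. Alignment and calling tools in the submitters' processing notes are MACS2 2.2.6, Bowtie2 2.4.4 and SAMtools, on hg38. The control and settings of peak calling are not given in the sources used here. Deposited values per peak are a score, a fold enrichment (a ratio), −log10 p and −log10 q, used only within a list. Fold and p were solved for the summit pileup and background.

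Covered length per gene window was scaled to the median library total, and log2 was taken after adding 100 bp. It was tested with limma 3.58.1 (trend; R 4.3.3) over the 12810 of 19974 genes averaging 500 bp or more, with Benjamini-Hochberg adjustment and a threshold of 0.05. The script was tested on simulated data. Coordinates and promoter sequences are RefSeq GRCh38.p14, which shares hg38 coordinates; exon positions were not used. From each pathway list the text names genes past the adjusted threshold or, if none, the 2 with the smallest p; for NEK1 and ANXA11 it names the 3 genes with the highest Pearson r. Alternatives covered scaling, peak threshold, pseudocount, filter, flank, a replicate block and left-out libraries. The members and lists were chosen with earlier results of these data known.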

Additional observations from a re-analysis of the deposited data

How the results depend on the processing

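NEK1 was below 0 in all 20 alternatives that tested it (log2 change -1.41 to -0.87, limma adjusted p 0.0899 to 0.777; under the stricter peak threshold, a −log10 q of 10, it was not tested), and so was ANXA11 in all 21 (-2.45 to -0.60, limma adjusted p 0.0277 to 0.720). These alternatives refit the same libraries. Under stricter peak thresholds the errors were wide: NEK1 was at -0.96 (SE 1.72) at a −log10 q of at least 5, and ANXA11 at -2.45 (SE 1.66) at 10. Leaving out 1 library at a time gave ANXA11 -1.16 to -0.60 and 0 to 1 of the 9 genes called, the 1 being ANXA11 without shTDP43 replicate 2 (-1.16). The other 6 tested genes changed sign under some setting and passed under none; the cause was not tested. With no scaling TBK1 was at -0.15, VCP at -0.0657, SQSTM1 at -0.0730 and SPG11 at -0.16. With scaling by peak number TBK1 was at -0.0261 and SPG11 at -0.0337, and with cyclic loess SPG11 was at -0.0179. At a −log10 q of at least 5 C9orf72 was at 0.0521, KIF5A at 0.00797, TBK1 at -0.61 and SPG11 at -0.19, and raised to 10 C9orf72 was at 0.11, SPG11 at -0.14 and KIF5A at -1.21 (SE 1.57, limma adjusted p = 0.729), the farthest that any setting moved KIF5A. With equal peak numbers C9orf72 was at 0.0718 and SPG11 at -0.0324. Without peaks also called after RNase H KIF5A was at 0.00706 and SQSTM1 at -0.13, and with no flank TBK1 was at -0.0297. Leaving out 1 library gave ranges of -0.29 to 0.14 for C9orf72, -0.19 to 0.22 for KIF5A, -0.24 to 0.37 for TBK1 and -0.0403 to 0.16 for SPG11.

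Over all genes, 96 less covered and 22 more covered became 19 and 1 with no scaling, 34 and 7 with scaling by peak number, 30 and 3 with −log10 q kept at or above 5, 30 and 2 at 10, 191 and 40 with 1000 bp added, and 61 and 14 without the trend. Without peaks also called after RNase H 52 were less covered, and with equal peak numbers 44 were more covered. Leaving out 1 library gave 12 to 166 less covered (12 without shNC replicate 1, 24 and 20 without shNC replicates 2 and 3, 166 without shTDP43 replicate 1) and 6 to 57 more covered. The labels do not say that replicate numbers pair the libraries. Deviations from the group mean correlated at -0.171, 0.062 and -0.172 between same-numbered libraries across genes, and shNC 1 correlated best with shTDP43 2. Deviations within a group are tied to each other through that mean, so these values cannot show whether libraries were paired. A replicate block left 9 more covered genes and gave limma adjusted p = 0.148 for NEK1 and 0.174 for ANXA11, so it changed no call among the 9 genes. Hybrids under the peak threshold are not in these lists.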

Other observations

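Likeness between genes was taken as Pearson r of log2 scaled covered length, with 100 bp added, over the 6 untreated libraries. The genes that followed NEK1 most closely, outside its own window, were NIPA1 (Pearson r = 0.994), VWA1 (r = 0.993) and GCNT4 (r = 0.993). All 3 were less covered on average in shTDP43, which comes with their choice by likeness to NEK1 and is no separate result. NIPA1 had a mean of 5.50 kb in shNC and 3.32 kb in shTDP43. For ANXA11 they were HIPK4 (r = 0.999), ANXA2 (r = 0.998) and LOC124903575 (r = 0.996), HIPK4 with means of 5.76 and 2.68 kb. These correlations are a description over 6 libraries that share their groups and their depths: 217 genes had an r above 0.9 with NEK1 and 538 with ANXA11.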
